A study of Homo sapiens with 6 samples.

Results

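The genes described are 10 transcription factors of T cells: the Ikaros family (IKZF1, IKZF2, IKZF3, IKZF4 and IKZF5), the T-cell factors TCF7 and LEF1, and the repressors BACH2, BCL11B and ZEB1. They were chosen by gene name from the 61541 genes of the count table, with earlier results of these data known. All 10 were among the 17678 genes that passed the filter on low counts. The libraries were bulk RNA-seq of H9, a human T-cell lymphoma line that is 1 clone, wild type in both groups. There were 3 libraries of cells given DMSO, the vehicle, and 3 of cells treated with AZD4573, a selective inhibitor of the elongation kinase CDK9, for 4 h according to their labels. The labels of the DMSO libraries give no time. As the labels do not say that the libraries came from separate cultures, p-values measure only the spread between these libraries, which may be technical.

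Ikaros family proteins bind DNA through zinc fingers, pair with each other and recruit chromatin-remodelling and deacetylase complexes. TCF7 and LEF1 bind DNA through an HMG box, act with beta-catenin as the nuclear end of Wnt signalling or with Groucho/TLE corepressors without it, and keep T cells in naive and memory states. BACH2 restrains effector differentiation, BCL11B commits thymocytes to the T-cell lineage, and ZEB1 represses genes such as IL2 in T cells and epithelial genes elsewhere.

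Total counts ranged from 70367303 to 76571157 with DMSO and from 52101868 to 63795185 with AZD4573. Levels are given in CPM, for which counts are scaled to a common library total, with the SD over 3 libraries, whereas fold changes come from edgeR after TMM normalisation, which also corrects for composition, so the sizes differ slightly. Of 12 T-cell markers, 10 were at 1 CPM or more in each library, while CD2 and CD7 stayed below it. The summed T-cell markers were 1315 to 1356 CPM with DMSO and 1716 to 1727 CPM with AZD4573. The 6 B-cell markers summed to 138 to 147 CPM and to 163 to 173 CPM, carried by CD79A and BLK, with the defining markers MS4A1 and PAX5 below 0.4 CPM in each library. Myeloid markers (6 genes) summed to at most 0.512 CPM with DMSO and 2.03 CPM with AZD4573, most of the latter from MPO, with FCGR3A at 0 counts throughout. The 4 NK-cell markers summed to at most 0.288 CPM in any library, with NCR1 at 0. The part of these marker levels in the results was not tested. In bulk samples, fewer cells and less RNA per cell cannot be told apart.

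After 4 h of AZD4573 the 10 factors moved in different directions, with BACH2 up about 4-fold, BCL11B and IKZF1 up by less with TMM but down when scaled to mitochondrially encoded mRNAs, and IKZF4, ZEB1, IKZF2, IKZF5 and LEF1 down. With edgeR's quasi-likelihood test and Benjamini-Hochberg adjustment, 5 members fell and 3 rose at an adjusted p under 0.05, where 37.4% of all tested genes were lower and 37.3% higher. With a fold change of at least 1.5 in addition, 4 members were lower (IKZF2, IKZF4, IKZF5 and ZEB1) against a background of 23.7%, and 2 were higher (BACH2 and BCL11B) against 22.7%. The 3 AZD4573 libraries lay entirely below the DMSO libraries for 6 members (42.9% of all genes) and entirely above for 3 (34.2% of all genes). The members' median log2 fold change was -0.13, beside 0.03 over all genes tested. Scaling to the 13 mitochondrially encoded mRNAs, which took 3.04% to 3.22% of counts with DMSO and 4.67% to 4.98% with AZD4573, moved the median of all genes to -0.71. On that scale 9 members fell, where 67.2% of all genes did, and 1, BACH2, rose, where 12.1% did. Such rescaling shifts all genes by nearly the same amount, so distances from the median of all genes are kept by construction. BACH2 lay 2.03 above this median with TMM and 2.02 above it on the mitochondrial scale, and IKZF4 lay at -1.12 on both.

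**Figure D1:**
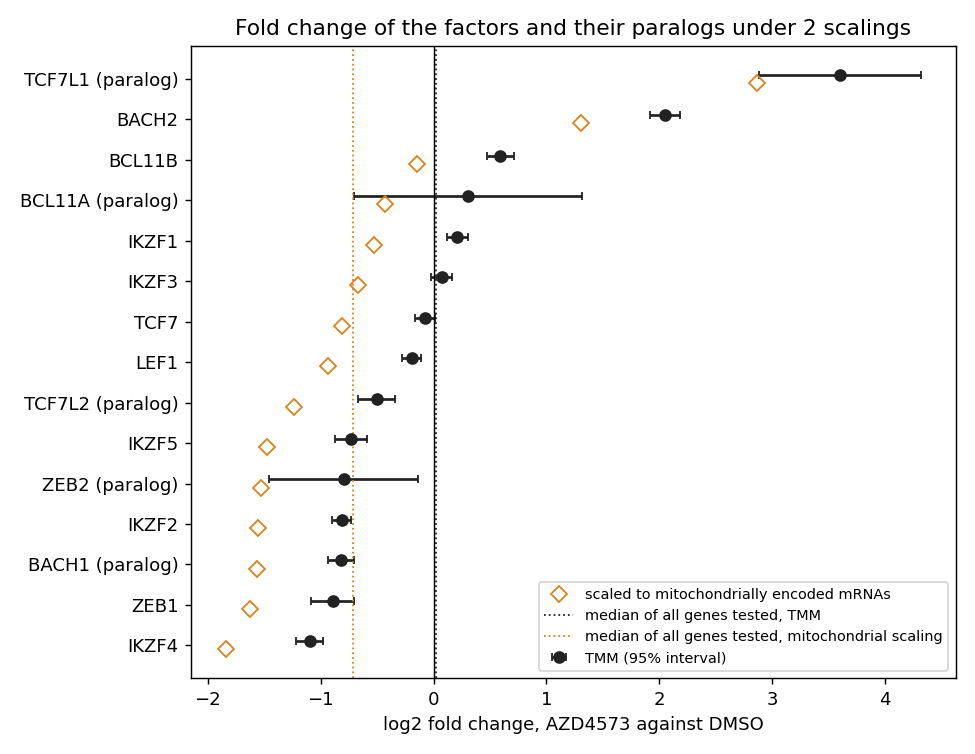
Log2 fold change (x axis, AZD4573 against DMSO) of the 10 members and 5 paralogs, as filled points with 95% intervals after TMM normalisation and as open diamonds after scaling to mitochondrially encoded mRNAs, with dotted lines at the median of all genes under each scaling. BACH2 lies at 2.05 and IKZF4 at -1.10 with TMM, and among the members only BACH2 stays above 0 on the mitochondrial scale.

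Within the Ikaros family, IKZF4 (Eos), a zinc finger repressor known from regulatory T cells, fell the most. Its levels were 58.5, 63.8 and 65.9 CPM with DMSO and 26.7, 27.6 and 27.4 CPM with AZD4573. The treated libraries were all well under the lowest control. The mean went from 62.7 ± 3.83 to 27.2 ± 0.479 CPM (SD, n = 3 each), a log2 fold change of -1.10 ± 0.0551 (SE; edgeR's quasi-likelihood test, adjusted p = 9.5e-10). The gene spans chr12:56007659-56038435 on the plus strand of GRCh38, the build of all coordinates given, and none of its exons overlaps another gene. Its promoter is shown as that of the member with the largest fall, with 250 bases before the RefSeq start (chr12:56020793-56021042, plus strand, GRCh38.p14) and a CCAAT box match (ATTGG on this strand) in capitals. The window lies inside the annotated gene, since other transcripts start further upstream.
IKZF4: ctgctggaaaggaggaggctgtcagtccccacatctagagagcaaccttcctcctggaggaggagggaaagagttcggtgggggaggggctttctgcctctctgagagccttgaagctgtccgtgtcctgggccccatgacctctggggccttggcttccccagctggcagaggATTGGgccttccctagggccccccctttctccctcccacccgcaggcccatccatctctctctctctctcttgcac
This window had 62.4% GC and 3 CpG, where the median window had 58.0% GC and 11 CpG. CCAAT occurred on either strand in 32.0% of 35114 windows of the same length.

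IKZF2 (Helios; chr2:212999691-213152427, minus strand), which marks many regulatory T cells, had 156, 162 and 162 CPM with DMSO and 87.2, 84.3 and 82.3 CPM with AZD4573. The groups were far apart and tight. Its log2 fold change was -0.81 ± 0.0405 (SE; adjusted p = 8.8e-10 by edgeR's quasi-likelihood test). IKZF5 (Pegasus; chr10:122990807-123008812, minus strand), the most divergent member of the family, had 39.6, 43.5 and 40.4 CPM with DMSO against 23.3, 21.0 and 24.8 CPM with AZD4573. It too fell without overlap, with a log2 fold change of -0.73 ± 0.0667 (SE; adjusted p = 2.9e-07, edgeR).

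IKZF1 (Ikaros; chr7:50304068-50405101, plus strand), the founding lymphoid factor of the family, changed little. Its levels were 84.7, 86.0 and 84.2 CPM with DMSO and 94.0, 92.5 and 88.3 CPM with AZD4573, so that the lowest treated library was just above the highest control. The log2 fold change of 0.21 ± 0.0430 (SE) passed the test (edgeR's quasi-likelihood test, adjusted p = 0.000537) with TMM but turned to -0.53 on the mitochondrial scale. IKZF3 (Aiolos; chr17:39757718-39864312, minus strand), which is induced as lymphocytes mature, had 456, 499 and 502 CPM with DMSO and 478, 488 and 459 CPM with AZD4573. The groups overlapped. Its log2 fold change of 0.07 (95% interval -0.02 to 0.17) did not pass the test (edgeR, adjusted p = 0.161), and it was -0.67 on the mitochondrial scale and -0.03 with library size as the only scaling.

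**Figure D2:**
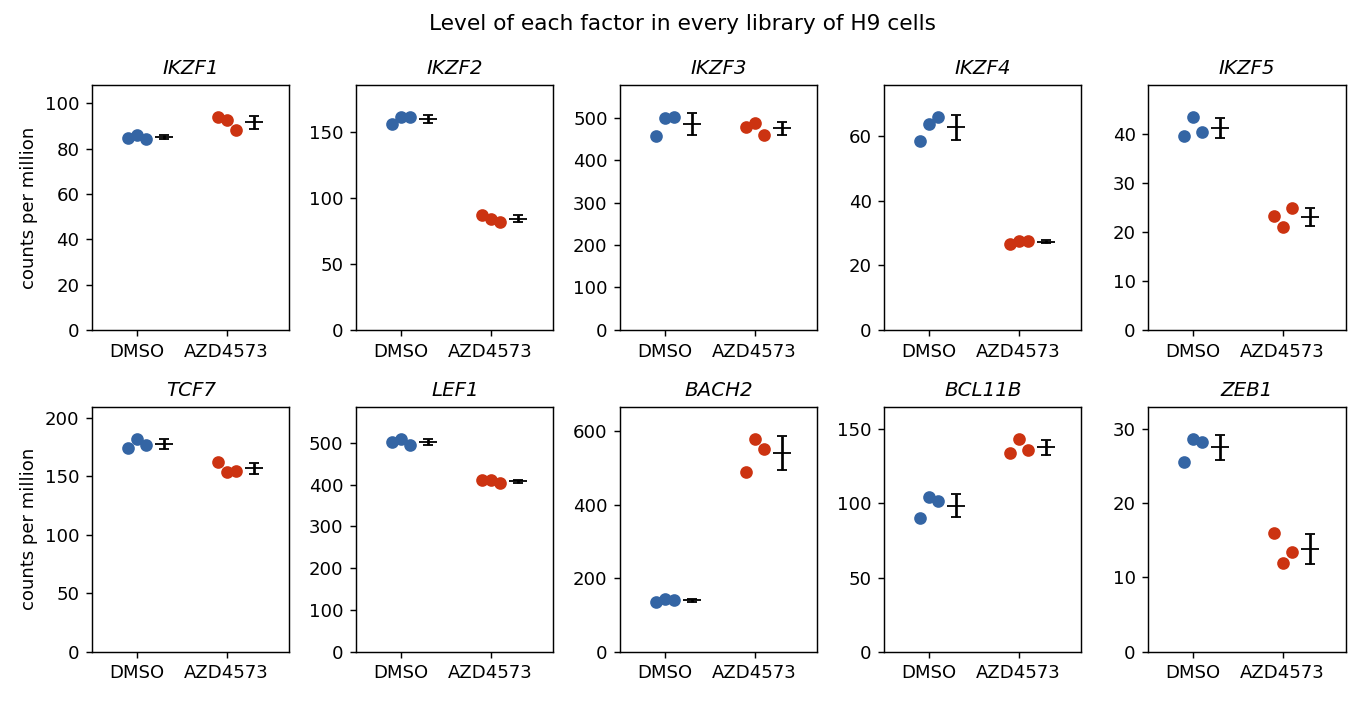
Level of each member in the 3 DMSO and 3 AZD4573 libraries, in CPM, with 1 point per library and, beside the points, the group mean with its SD. BACH2 goes from 136 to 143 CPM with DMSO to 488 to 579 CPM with AZD4573, while the groups of IKZF3 overlap.

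LEF1 (chr4:108047545-108168956, minus strand) was the most abundant member per kilobase of exon and fell. It had 502, 510 and 493 CPM with DMSO and 410, 411 and 404 CPM with AZD4573. All treated libraries were below all controls, with a log2 fold change of -0.19 ± 0.0387 (SE; edgeR's quasi-likelihood test, adjusted p = 0.000471) with TMM and of -0.93 on the mitochondrial scale (edgeR, adjusted p = 1.1e-10). TCF7 (chr5:134114681-134151865, plus strand), its partner in T-cell identity, had 174, 182 and 177 CPM with DMSO and 162, 154 and 155 CPM with AZD4573. The groups did not overlap, yet the log2 fold change of -0.08 (95% interval -0.16 to 0.01) did not pass the test (edgeR, adjusted p = 0.0994). It did pass without DMSO replicate 1 (adjusted p = 0.0467), with library size as the only scaling (adjusted p = 0.00133) and on the mitochondrial scale, where the log2 fold change was -0.81 (edgeR, adjusted p = 1.9e-09).

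The related TCF7L2 had 17.9, 20.9 and 20.5 CPM with DMSO and 14.0, 12.7 and 12.3 CPM with AZD4573, a log2 fold change of -0.50 (edgeR, adjusted p = 4.1e-05). TCF7L1, a family member that mostly acts as a repressor, was nearly silent in the controls. It had 14, 6 and 26 counts with DMSO and 114, 141 and 169 counts with AZD4573. In CPM it rose from 0.212 ± 0.144 to 2.40 ± 0.232 (SD, n = 3 each), with a log2 fold change of 3.60 ± 0.330 (SE; edgeR, adjusted p = 3.2e-07). Without DMSO replicate 3 it was 4.22, and over all omissions of a library it ranged from 3.22 to 4.22. Per kilobase of exon, the treated level of TCF7L1 was 0.542 CPM per kb, against 15.5 for TCF7.

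BACH2 (chr6:89926528-90296843, minus strand), a basic leucine zipper repressor that pairs with small MAF proteins, was the member with the largest rise. Its levels were 136, 143 and 141 CPM with DMSO and 488, 579 and 550 CPM with AZD4573. Each treated library was at more than 3 times the level of each control. The mean went from 140 ± 3.85 to 539 ± 46.6 CPM (SD, n = 3 each), a 4.15-fold change (log2 fold change 2.05 ± 0.0617 SE, edgeR's quasi-likelihood test, adjusted p = 2.3e-11), and 1.31 on the mitochondrial scale. Of all tested genes, 93.6% had a lower log2 fold change.

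BACH1, the ubiquitous paralog known for repression of HMOX1, moved the other way. It had 38.9, 40.8 and 39.9 CPM with DMSO and 21.7, 20.2 and 21.1 CPM with AZD4573. The log2 fold change was -0.82 ± 0.0535 (SE; edgeR, adjusted p = 1.0e-08), with no overlap of the groups. The promoters of both paralogs are shown because they moved in opposite directions, as 250 bases before the RefSeq start (BACH2 chr6:90296844-90297093, minus strand; BACH1 chr21:29298672-29298921, plus strand; GRCh38.p14), 5′ to 3′. The BACH1 window lies inside the annotated gene, downstream of the starts of other transcripts. Capitals mark GC boxes (GGGCGG or CCGCCC) and, in BACH1, the run formed by a BACH and AP-1 element (TGACTCA, here TGAGTCA) and an E-box (CAGGTG, here CACCTG) that share bases.
BACH2: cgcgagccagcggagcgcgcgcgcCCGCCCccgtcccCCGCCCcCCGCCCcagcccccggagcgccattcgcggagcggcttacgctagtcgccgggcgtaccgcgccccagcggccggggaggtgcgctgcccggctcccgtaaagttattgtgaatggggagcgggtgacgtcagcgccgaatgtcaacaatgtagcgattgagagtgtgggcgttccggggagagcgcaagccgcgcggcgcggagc
BACH1: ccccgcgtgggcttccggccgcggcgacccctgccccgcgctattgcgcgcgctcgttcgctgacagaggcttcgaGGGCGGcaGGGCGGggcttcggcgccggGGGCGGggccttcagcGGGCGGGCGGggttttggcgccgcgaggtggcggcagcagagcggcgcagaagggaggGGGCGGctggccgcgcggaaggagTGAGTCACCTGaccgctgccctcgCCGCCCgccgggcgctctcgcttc
Both windows held 40 CpG, with 73.6% GC for BACH2 and 78.4% for BACH1. GC boxes numbered 3 in BACH2 and 7 in BACH1, and 42.6% of all windows held at least 1. TGACTCA was found in 4.20% and CAGGTG in 17.5% of windows on either strand. Other letters searched on either strand had no match in the 4 windows shown. These were the TATA box TATAAA, found in 10.7% of all windows, the TCF/LEF core CTTTGA, found in 11.2%, the Ikaros core TGGGAA, found in 20.8%, and the GATA site AGATAA, found in 9.17%. Among searched windows that are not shown, the Ikaros core occurred in IKZF1 (bases -32 to -27 from the start) and in the paralog ZEB2 (-211 to -206).

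BCL11B (chr14:99169287-99272197, minus strand), a zinc finger factor of the T-cell lineage, rose moderately. It had 89.9, 104 and 102 CPM with DMSO and 134, 144 and 136 CPM with AZD4573, without overlap. Its log2 fold change was 0.59 ± 0.0549 (SE; edgeR's quasi-likelihood test, adjusted p = 3.6e-07), which is 1.51-fold and thus just past the 1.5-fold threshold, and turned to -0.15 on the mitochondrial scale. It dropped under that threshold without DMSO replicate 1 or AZD4573 replicate 2, which left 1 member higher by the fold rule. The paralog BCL11A, a factor of B cells and fetal haemoglobin silencing, was near the floor with 7 to 16 counts in any library. Its log2 fold change of 0.31 (95% interval -0.70 to 1.32) did not pass the test (edgeR, adjusted p = 0.565) and was -0.43 on the mitochondrial scale.

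ZEB1 (chr10:31318495-31529814, plus strand) was the member with the lowest level per kilobase of exon and fell. It had 25.6, 28.7 and 28.2 CPM with DMSO and 16.0, 12.0 and 13.4 CPM with AZD4573, so that the highest treated library was well under the lowest control. The log2 fold change was -0.89 ± 0.0872 (SE; edgeR's quasi-likelihood test, adjusted p = 6.0e-07). ZEB2, the paralog of effector and myeloid cells, had 45, 44 and 39 counts with DMSO and 18, 19 and 18 counts with AZD4573. Its log2 fold change was -0.80 ± 0.305 (SE; edgeR, adjusted p = 0.0302), a call that was lost in 8 of 13 alternatives, including each omission of a library except that of AZD4573 replicate 1. The ZEB1 promoter is shown because ZEB1 itself binds E-boxes of the form CAGGTG, as 250 bases before the RefSeq start (chr10:31318966-31319215, plus strand, GRCh38.p14) with E-box matches (CAGGTG or its reverse complement CACCTG) and a GC box match (CCGCCC) in capitals.
ZEB1: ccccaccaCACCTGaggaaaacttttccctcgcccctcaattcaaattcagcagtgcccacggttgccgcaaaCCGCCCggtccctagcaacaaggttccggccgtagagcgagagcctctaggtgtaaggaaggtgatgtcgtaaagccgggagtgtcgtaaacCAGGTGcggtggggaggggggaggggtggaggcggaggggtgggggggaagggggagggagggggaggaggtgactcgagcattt
This window, which also lies within the annotated gene, held 2 CAGGTG matches and 1 GC box, with 62.4% GC and 14 CpG.

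Some members share exon bases with a neighbouring gene. The supplemental methods name a directional library kit and RSEM with default parameters, and give no strand setting. Reads in the shared bases may therefore not have been assigned by strand. LEF1 shared 279 of 5361 exon bases with LEF1-AS1, and ZEB1 shared 396 of 8650 with ZEB1-AS1, whose counts reached 58.0% of those of ZEB1. LEF1-AS1 rose from 3.46 ± 0.534 to 5.21 ± 0.491 CPM (log2 fold change 0.69, edgeR, adjusted p = 0.000386), although LEF1 fell. ZEB1-AS1 rose from 4.72 ± 0.376 to 6.77 ± 0.638 CPM (0.63, edgeR, adjusted p = 0.000149), although ZEB1 fell. On the mitochondrial scale both were at -0.05 and -0.11, respectively, and did not pass the test (adjusted p = 0.768 and 0.349). TCF7 shared 210 of 10093 exon bases with SKP1, whose counts reached 90.0% of those of TCF7, and IKZF5 shared 81 of 4928 with PSTK, whose counts reached 17.3% of its own.

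Per kilobase of exon, LEF1 led in both groups, with 93.6 ± 1.53 CPM per kb with DMSO and 76.1 ± 0.718 with AZD4573 (SD, n = 3 each). With DMSO it was followed by IKZF3 (48.0), TCF7 (17.6), IKZF2 (13.1), BACH2 (12.9), BCL11B (11.6), IKZF4 (9.20), IKZF5 (8.36), IKZF1 (7.78) and ZEB1 (3.18). The ranges of IKZF2 and BACH2 overlapped, as did those of IKZF4 and IKZF5, whereas other neighbours in this order did not. With AZD4573 the order was LEF1, BACH2 (49.6), IKZF3 (46.9), BCL11B (16.2), TCF7 (15.5), IKZF1 (8.39), IKZF2 (6.91), IKZF5 (4.68), IKZF4 (4.00) and ZEB1 (1.60), with overlap for BACH2 and IKZF3 and for BCL11B and TCF7. CPM levels are scaled to library totals and not to mitochondrially encoded mRNAs. On this scale the summed level of the 10 members was 225 ± 5.70 CPM per kb with DMSO and 230 ± 4.67 with AZD4573. BACH2 took 5.72% of this sum with DMSO and 21.6% with AZD4573, and LEF1 took 41.6% and 33.1%.

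The balance between related factors within a library is independent of how libraries are scaled. The exception is low counts, where the number added to each count makes the ratio vary with library depth. For 8 pairs the log2 ratio of counts, not corrected for exon length, was compared with a two-sided exact permutation test. With 3 against 3 libraries this exact permutation test cannot go below p = 0.1. Without a length correction the ratios show changes between groups and not relative abundance. The BACH2 to BACH1 ratio rose from 3.51 to 25.6, 7.31-fold, without overlap (log2 difference 2.87, exact permutation p = 0.1, adjusted over 8 pairs p = 0.133). IKZF1 to IKZF2 went from 0.531 to 1.08 (2.04-fold), and IKZF3 to IKZF2 went from 3.04 to 5.61 (1.85-fold). The IKZF4 to IKZF5 ratio differed by -0.36 in log2, TCF7 to LEF1 by 0.12 and IKZF1 to IKZF3 by 0.14, also without overlap. These 5 pairs had the same p values, so none passed 0.05. BCL11B to BCL11A (log2 difference 0.32, exact permutation p = 0.7) and ZEB1 to ZEB2 (-0.12, exact permutation p = 0.5) overlapped between groups, and the former turned to -0.039 without AZD4573 replicate 3. ZEB1 to ZEB2 ranged from -0.19 to -0.014 when single libraries were left out and was -0.28 without overlap (exact permutation p = 0.1) with 5 in place of 0.5 added to each count. ZEB2 had low counts, at which the added number weighs more.

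**Figure D3:**
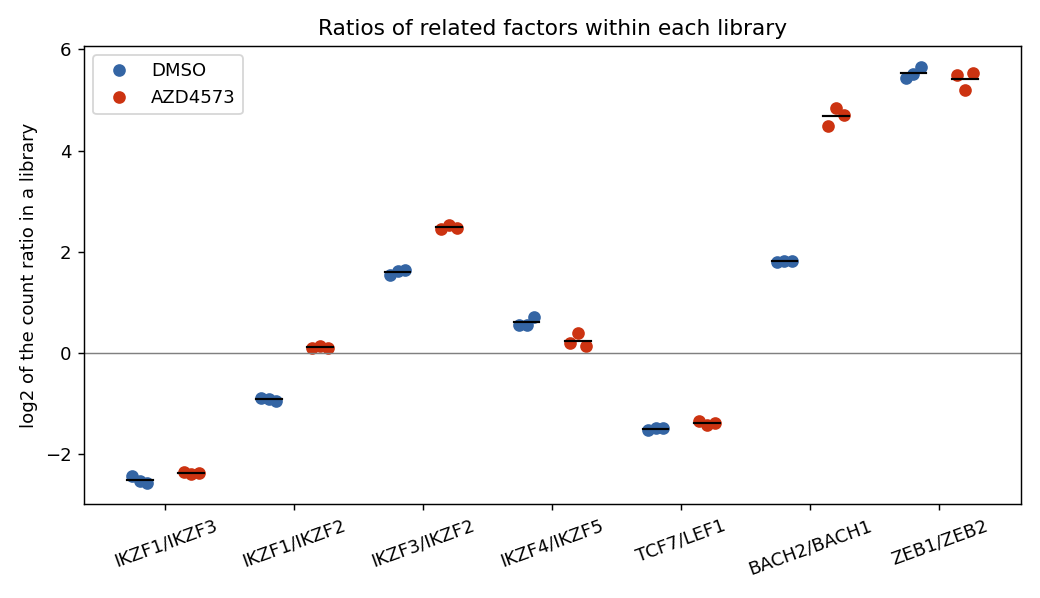
Log2 ratio of related factors within each library, with 1 point per library in 3 DMSO and 3 AZD4573 libraries; BCL11B to BCL11A is left out as BCL11A had at most 16 counts. The BACH2 to BACH1 ratio moves the most, by 2.87 on the log2 scale.

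The members spanned from 18.0 kb (IKZF5) to 370 kb (BACH2), and the paralog BACH1 spanned 437 kb. Over the 17638 tested genes with a span, the median log2 fold change was 0.24 in the shortest quartile (up to 7.09 kb), 0.04 and -0.09 in the middle quartiles and -0.04 in the longest (from 61.9 kb). Among genes of the longest quartile, 3.02% had a higher log2 fold change than BACH2. The members in the longest quartile were BACH2, ZEB1 (211 kb), IKZF2 (153 kb), LEF1 (121 kb), IKZF3 (107 kb), BCL11B (103 kb) and IKZF1 (101 kb), and they ran from -0.89 to 2.05. The members outside it, IKZF5 (18.0 kb), IKZF4 (30.8 kb) and TCF7 (37.2 kb), had log2 fold changes of -0.73, -1.10 and -0.08. The 3 members that rose with TMM were in the longest quartile, where 35.2% of all genes rose, against 40.6% in the shortest. Of these 3, IKZF1 and BCL11B fell on the mitochondrial scale.

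**Figure D4:**
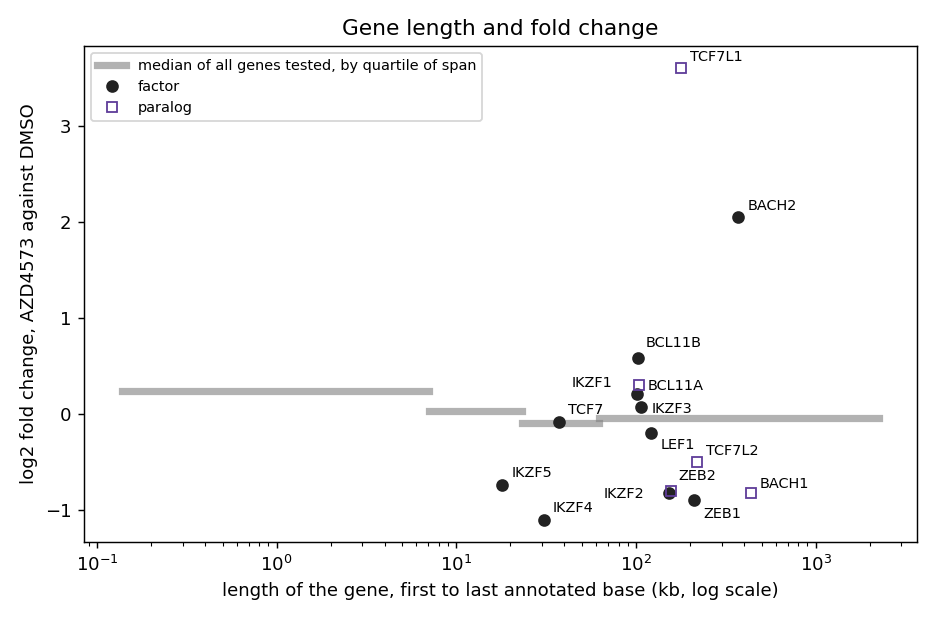
Log2 fold change against genomic span in kb (log axis) for the members and their paralogs, with the median of all tested genes in each quartile of span. The longest quartile holds both BACH2 at 2.05 and ZEB1 at -0.89.

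The genes whose profile over the 6 libraries lay nearest to that of IKZF4, by Euclidean distance of log2 CPM relative to the DMSO mean among 9068 genes with a symbol and a mean of at least 10 CPM, were DTX2 (distance 0.0758), LIMK2 (0.0759) and SLC9B2 (0.0942). Nearest to BACH2 were BCL6 (0.167), C21orf58 (0.176) and LINC00174 (0.201). BCL6, a repressor of germinal centre B cells and follicular helper T cells, went from 12.5 ± 0.446 to 50.0 ± 3.81 CPM (SD, n = 3 each).

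Partners and targets of the factors were examined in 8 lists with 87 genes, of which 82 were tested, 44 fell, 26 rose and 12 did not pass (edgeR, adjusted p under 0.05), whereas on the mitochondrial scale 68 fell and 7 rose. Over all genes, 37.4% fell and 37.3% rose with TMM and 67.2% fell and 12.1% rose on the mitochondrial scale, and the counts of each list stand against these shares. Among NuRD, Sin3 and CtBP corepressors of the Ikaros family, 9 of 17 fell and 5 rose, with a median log2 fold change of -0.11. SIN3A, the scaffold of the Sin3 complex, fell from 161 ± 3.77 to 73.9 ± 3.77 CPM, MBD3 fell (-0.59 in log2) and CTBP2 fell (-0.46). HDAC1 rose from 302 ± 3.18 to 388 ± 10.1 CPM, beside GATAD2B (0.56) and MTA1 (0.46), but on the mitochondrial scale these 3 were at -0.27, -0.18 and -0.27. Of the 5 genes of the cereblon ubiquitin ligase, which degrades IKZF1 and IKZF3 in the presence of lenalidomide, 3 fell and 1 rose (median -0.13). CRBN, its substrate receptor, fell from 22.6 ± 0.215 to 12.7 ± 0.920 CPM, CUL4A was at -0.56 and CUL4B at -0.13.

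Of 17 tested partners of TCF7 and LEF1 (beta-catenin, Groucho/TLE and the destruction complex), 12 fell and 2 rose, with a median of -0.80, against 37.4% and 37.3% of all genes. On the mitochondrial scale the list had 16 lower and 0 higher, where 67.2% of all genes were lower. CTNNB1, which encodes beta-catenin, had 130, 139 and 135 CPM with DMSO and 47.4, 40.8 and 37.7 CPM with AZD4573, a log2 fold change of -1.58 (edgeR, adjusted p = 1.9e-10). Its coactivator BCL9 fell from 19.4 ± 1.11 to 4.73 ± 0.129 CPM, and AMER1, a destruction complex scaffold, from 31.3 ± 1.11 to 8.93 ± 0.503 CPM. TLE5, a short Groucho protein, rose from 333 ± 11.9 to 471 ± 5.74 CPM and CTNNBIP1, which keeps beta-catenin from TCF proteins, rose by a log2 fold change of 0.21, although both were negative on the mitochondrial scale (-0.13 and -0.53).

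Of 9 tested Wnt target genes, 3 fell and 6 rose (median 0.17; 37.4% and 37.3% of all genes), and on the mitochondrial scale 6 fell and 2 rose, against 67.2% and 12.1% of all genes. AXIN2, the most widely used Wnt target, fell from 8.10 ± 0.404 to 2.52 ± 0.299 CPM and NKD1 from 3.67 ± 0.377 to 2.16 ± 0.0222 CPM. CCND1 rose from 0.416 ± 0.128 to 1.12 ± 0.213 CPM. RNF43 and NOTUM, inhibitors of Wnt signalling, rose with log2 fold changes of 0.24 and 0.56, which turned to -0.50 and -0.18 on the mitochondrial scale.

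The naive and memory T-cell genes, the states that TCF7, LEF1 and BACH2 are known to maintain, gave 7 of 12 lower and 4 higher (median -0.39), against 37.4% and 37.3% of all genes. KLF2, a factor of quiescence and trafficking, fell from 10.2 ± 0.188 to 2.21 ± 0.218 CPM, ID3 from 12.5 ± 0.572 to 6.04 ± 1.33 CPM and S1PR1, the lymph node exit receptor, from 2.27 ± 0.333 to 0.895 ± 0.260 CPM. BCL6 rose (2.11 in log2), CXCR5 rose from 0.966 ± 0.151 to 1.61 ± 0.0435 CPM and TOX rose by 0.23. On the mitochondrial scale CXCR5 was at 0.10 and did not pass the test (edgeR, adjusted p = 0.646), and TOX was at -0.51. Of 9 tested effector genes, 5 fell and 3 rose (median -0.65). PRDM1, the effector regulator that BACH2 is known to repress, had 4.86, 4.36 and 4.71 CPM with DMSO and 0.729, 0.875 and 0.893 CPM with AZD4573. This gave a log2 fold change of -2.37 (edgeR, adjusted p = 7.9e-09). TBX21 (-2.11) and ID2 (-1.60) fell, whereas CX3CR1 rose from 0.502 ± 0.0284 to 4.65 ± 0.343 CPM and GZMA rose by 0.49, which was -0.25 on the mitochondrial scale.

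Of the 7 small MAF partners, corepressors and HMOX1, 3 fell and 3 rose (median 0.06). MAFG, a dimer partner of BACH proteins, rose from 105 ± 3.99 to 291 ± 20.2 CPM and MAFK from 63.2 ± 2.62 to 92.5 ± 8.95 CPM, although MAFK was at -0.09 on the mitochondrial scale. MAFF fell from 5.98 ± 0.392 to 1.92 ± 0.263 CPM, and the corepressor NCOR1 fell (-0.31). Of 6 genes that ZEB1 is known to repress, 2 fell and 2 rose (median -0.15). IL2 fell from 2.67 ± 0.252 to 1.02 ± 0.163 CPM and EPCAM fell by 0.21 on the log2 scale. The epithelial splicing factor ESRP1 rose from 22.6 ± 0.405 to 59.7 ± 3.64 CPM, and ESRP2 had 3, 0 and 5 counts with DMSO and 74, 56 and 56 counts with AZD4573. The list medians are descriptions without a test.

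**Figure D5:**
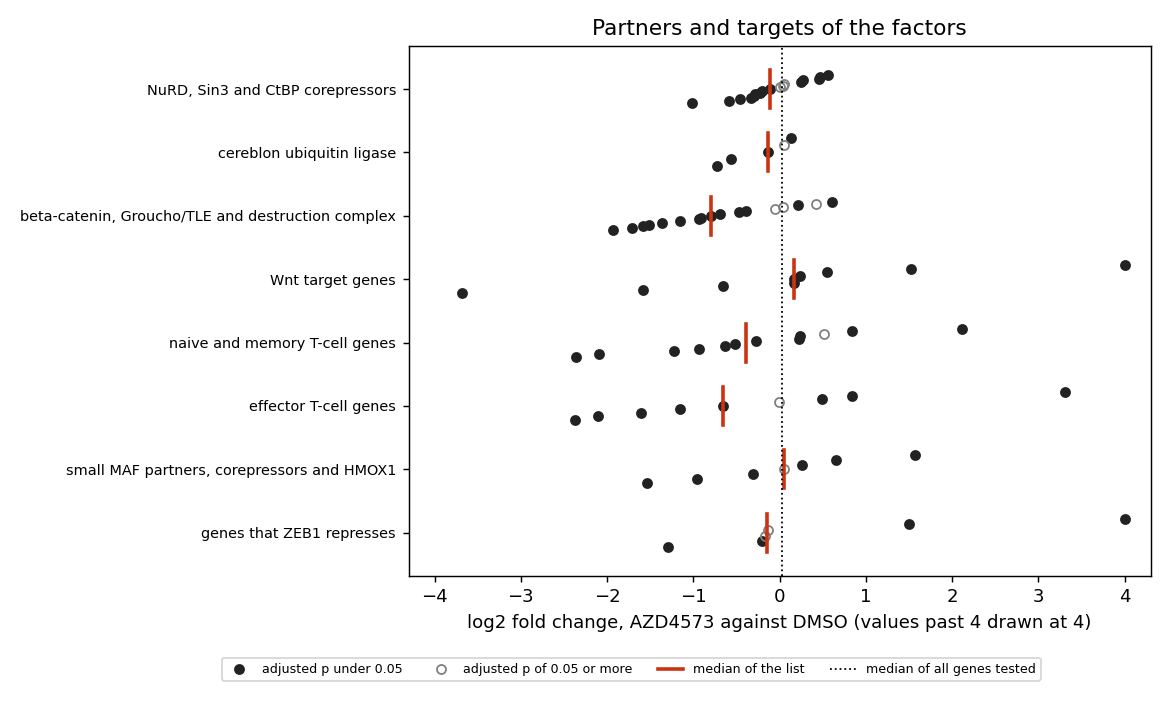
Log2 fold change of each tested gene in 8 lists of partners and targets, with filled points for an adjusted p under 0.05, open points otherwise, a bar at the list median and a dotted line at the median of all genes. The partners of TCF7 and LEF1 have a median of -0.80; the extreme Wnt targets are LGR5 (0 counts in all DMSO libraries) and SP5 (at most 5 counts with AZD4573), both under 1 CPM and named after their values were seen.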

How the data were processed

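RNA was measured in 3 DMSO and 3 AZD4573 libraries of H9 cells. According to the submitters' processing notes and the study's methods, the authors trimmed reads with Cutadapt 2.3, aligned them to GRCh38 with STAR 2.7.8a and deposited expected counts per gene from RSEM 1.3.3, which hold whole numbers and are not normalised. RNA was selected by poly(A) per the labels and by removal of rRNA per the supplemental methods. The 5 reporter entries had 0 counts and were left out. RSEM sums isoforms. Errors cover counting and library spread only.

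Genes passing filterByExpr (minimum count 10) were compared in R 4.3.3 with edgeR 4.0.16 (TMM, quasi-likelihood test, Benjamini-Hochberg adjustment, no replicate block). Calls used an adjusted p under 0.05, with or without a fold change of 1.5. The members, lists and alternatives were chosen with earlier results of these data known. Alternatives were RLE factors, library size, mitochondrial scaling, 2 filters, DESeq2 1.42.0, a replicate block, omission of each library and a fold of 2. Named genes were the members, paralogs, their antisense transcripts, up to 3 lowest and 3 highest calls per list (at least 1 CPM, groups not overlapping) and the 3 nearest profiles; a gene that met this rule is not reported here. Positions and exons came from GENCODE release 44. Promoters came from the RefSeq table (GRCh38.p14), in which 9 of 10 members had a window and 6 had one at the canonical start, and motifs were chosen after values were seen. Ratios (0.5 added to each count, or 5) were tested with scipy 1.17.1. Scripts were tested on simulated data. Libraries of the same replicate number showed no shared deviation (correlations of deviations -0.0209, 0.0417 and 0.0318), which cannot tell whether they were prepared together.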

Additional observations from a re-analysis of the deposited data

How the results depend on the processing

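Of 360 recomputed values, 325 were close to the main value (for a tested value, same sign and side of the threshold; for a count, within 1.5 times; for a difference without a call, same sign), 17 counts moved by over 1.5 times, 8 lost and 4 gained a call, and 6 reversed. Scaling to the mitochondrially encoded mRNAs gave 9433 genes lower and 1769 higher by fold, 7 members lower and 1 higher by fold, 9 members lower and 1 higher by adjusted p, and 68 list genes lower and 7 higher. It reversed IKZF1 (-0.53), IKZF3 (-0.67), BCL11B (-0.15) and BCL11A (-0.43). With library size only, IKZF3 reversed to -0.033, and there as without a filter 1 member was higher by fold. A fold of 2 left 2450 genes lower and 2643 higher, with 1 member each way. Omission of single libraries gave 4142 to 4337 genes lower and 3872 to 4119 higher, 4 to 4 members lower and 1 to 2 higher by fold, 5 to 6 lower and 3 to 3 higher by adjusted p, and 40 to 43 list genes lower and 23 to 26 higher. The log2 ratio differences then ranged from -0.039 to 0.53 for BCL11B to BCL11A, which reversed without AZD4573 replicate 3. IKZF3 passed the test with at least 10 counts in every library (0.11, edgeR adjusted p = 0.0389). ZEB2 lost its call in 8 of 13 settings. With the longest transcript as gene length, 7 of 10 members kept their place in the DMSO order of levels and 6 in the AZD4573 order. With a replicate block, 4162 genes were lower and 3926 higher by fold and ZEB2 lost its call (adjusted p = 0.0584, edgeR), while no member's call changed. The labels do not say whether replicate numbers pair the libraries. Why values changed between settings was not tested. With 3 libraries per group, the exact permutation test of ratios cannot go below p = 0.1, and genes under 20 counts such as BCL11A allow wide intervals only.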
